A study of Homo sapiens with 4 samples.

Results

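The genes described here are 39 genes of homologous recombination, the Fanconi anemia pathway and the checkpoint signalling around them, taken from a named list and matched by symbol to the gene identifiers of the count tables. All 39 symbols were matched, out of 60279 genes in the tables, and all 39 were among the 14269 genes that averaged at least 1 CPM (a gene's reads relative to all gene reads of the library) over the libraries and were compared. The list was drawn up to ask whether the gene-level abundance of repair transcripts differed in cells given indisulam, since loss of the splicing factor RBM39 is reported to impair them.

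RNA was sequenced from SUM159, a cell line from a triple-negative breast cancer, as 4 libraries with 1 library per group, which were untreated, given palbociclib (PD), given indisulam (IN), or given both drugs (combination). All cells grew in medium holding insulin and hydrocortisone. By the sample labels the cells had 10 days of drug, with 0.5 µM palbociclib and 2 µM indisulam. The series text instead names 2 µM and 3 µM and an exposure of 16 h, and the files do not settle which holds. The paper describes these as separate experiments, 10 days for gene set enrichment and 16 h for splicing errors. It reports duplicates for both, and calls those of the splicing experiment technical. For the splicing experiment it names another aligner than the TopHat2 named for these counts. The series text also speaks of technical duplicates, and whether these were pooled into the 4 libraries is not stated in the sources used here. Palbociclib inhibits the kinases CDK4 and CDK6, which phosphorylate RB and so free E2F factors to transcribe S-phase genes. Indisulam is an aryl sulfonamide that joins RBM39 to the DCAF15 ubiquitin ligase, after which RBM39 is degraded.

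Homologous recombination mends a broken chromosome by copying the sister chromatid. The ends are resected by the MRE11 complex, CtIP and EXO1, BRCA1 with PALB2 brings BRCA2 to the break, and BRCA2, with the XRCC and RAD54 proteins among its helpers, prepares the resected end to invade the sister. In the Fanconi pathway a core ubiquitin ligase marks the FANCD2-FANCI pair at crosslinks between DNA strands, and the lesion is then passed to the recombination proteins. Many of these genes are transcribed mainly in S and G2, so their level in a culture also follows the share of cells in those phases. Counts from a bulk culture cannot tell fewer expressing cells from less RNA per cell.

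The libraries held 12555908 (untreated), 12691481 (palbociclib), 16712174 (indisulam) and 14359529 (combination) gene reads, so that 3 reads corresponded to between 0.180 and 0.239 CPM. The mesenchymal markers of SUM159 were high, with VIM between 2642 and 4598 CPM, whereas ESR1 stayed between 0.239 and 1.11 CPM. PGR did not exceed 0.209 CPM, but ERBB2 was at 110 to 143 CPM. Among markers of other cells, CD3E and INS had 0 reads in all 4 libraries, whereas the leukocyte gene PTPRC lay between 11.1 and 17.5 CPM and the endothelial gene PECAM1 between 15.2 and 40.9 CPM. Of 3 proliferation markers, MKI67 was at 126 CPM untreated, 44.5 with palbociclib, 246 with indisulam and 129 with the combination. In the same order PCNA was at 40.2, 39.4, 59.0 and 55.1 CPM and TOP2A at 321, 121, 222 and 199, so that TOP2A was highest untreated. The RBM39 transcript itself was at 342, 237, 376 and 305 CPM in the same order, and its protein, on which indisulam acts, was not measured by these counts.

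Ratios below are log2 ratios of counts scaled to the mean library total, with a pseudocount of 1. Each is followed by its 95% interval, which covers counting error only, because no group had a second library. A gene was called when it differed at least 2-fold and its interval excluded a ratio of 1. No p-value can be given. The additive expectation offers a rough scale of the remaining error. For a typical gene of 5 to 20 CPM, the spread of the departures from it put the SD of a single log2 ratio at no more than 0.37. The limit was 0.26 for genes of 20 to 100 CPM and 0.62 for those of 1 to 5 CPM. A single gene may vary more than the typical one.

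With indisulam alone against untreated cells, 5 of the 39 genes were called higher and 0 lower. Over all tested genes, 8.44% were called higher and 6.71% lower. The median log2 ratio of the repair genes was 0.26, and that of all tested genes 0.06. The 5 genes were EXO1, BLM, XRCC2, BRCA2 and RAD51AP1. A second estimate of the indisulam difference, which shares no library with the first, compares the combination with palbociclib alone. There 7 genes were called higher (BRCA2, RAD51AP1, BRIP1, BLM, EXO1, RAD54L and RAD54B) and 0 lower, against a background of 9.62% and 7.40%, and the medians were 0.14 for the repair genes and 0.07 for all genes (0.04 and -0.03 with TMM scaling). BRCA2, RAD51AP1, BLM and EXO1 were called higher in both estimates, 4 of 39, where 4.88% of all tested genes were, and 0 were called lower in both, where 3.67% of all tested genes were.

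**Figure D1:**
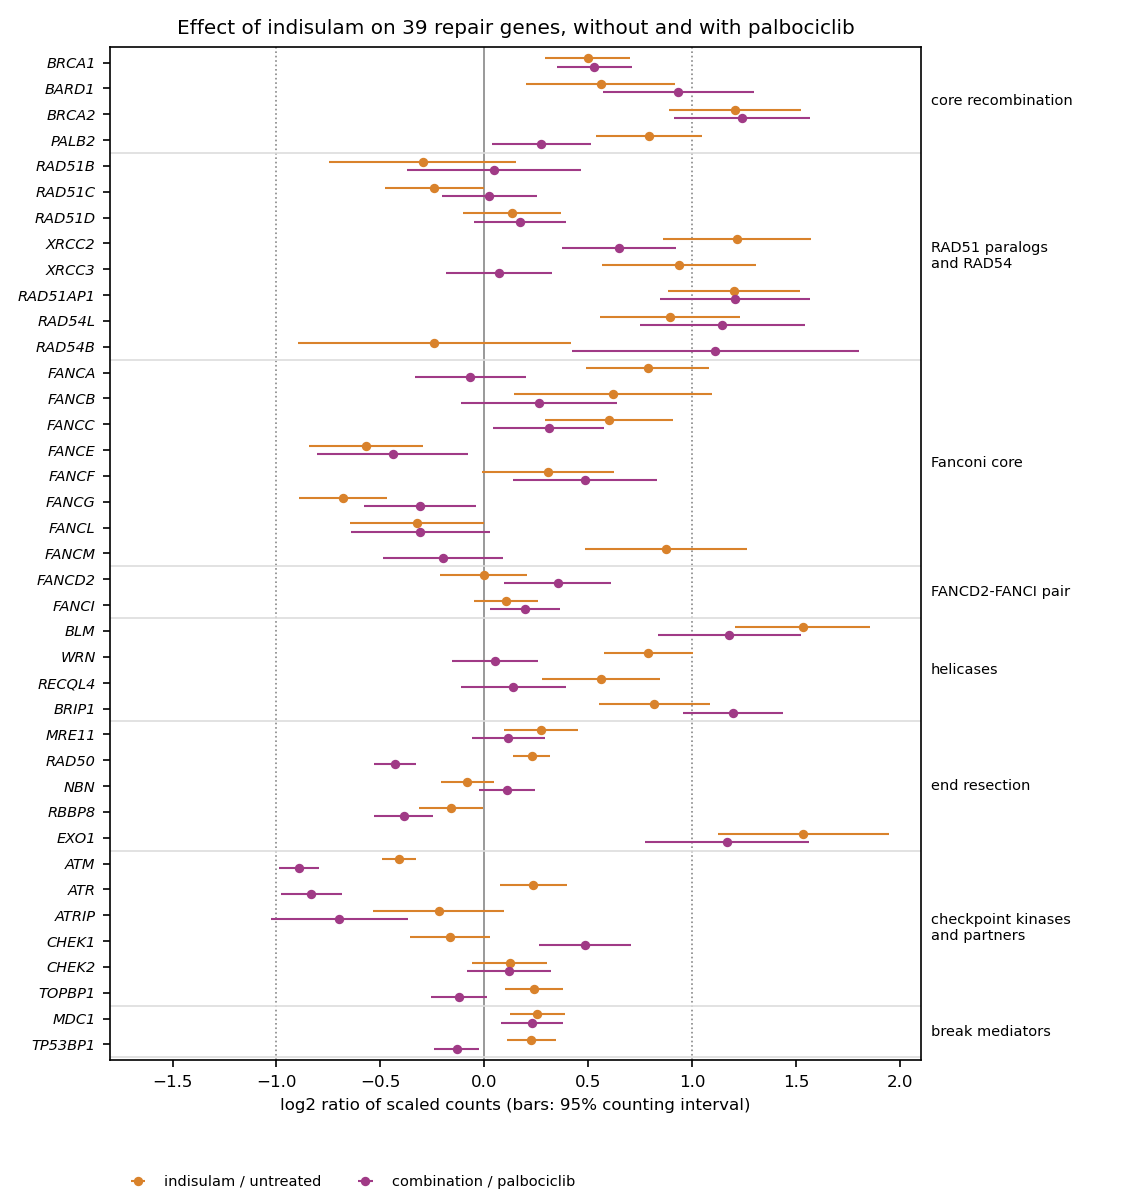
Log2 ratios of the 39 repair genes for the 2 estimates of the indisulam difference that share no library, indisulam against untreated and combination against palbociclib, with bars for the 95% counting intervals and genes ordered by role. BRCA2, RAD51AP1, BLM and EXO1 lie above 1 in both estimates, and 0 genes lie below −1 in either.

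BRCA2, the mediator of strand exchange at resected ends (chromosome 13, 32315086 to 32400268, GRCh38), was at 8.20 CPM untreated, 7.96 with palbociclib, 19.0 with indisulam and 18.9 with the combination. Both libraries with indisulam were thus above both without. The indisulam library exceeded the untreated one by a log2 ratio of 1.21 (0.89 to 1.53), or 2.31-fold, and the combination exceeded palbociclib by 1.24 (0.91 to 1.57), or 2.36-fold. RAD51AP1, a stimulator of strand invasion (chromosome 12, 4538798 to 4560047), was at 8.28, 6.54, 19.1 and 15.2 CPM in the same order, with ratios of 1.20 (0.89 to 1.52) and 1.21 (0.84 to 1.57). BLM, the helicase of Bloom syndrome that dissolves joined recombination intermediates (chromosome 15, 90717346 to 90816166), was at 7.49, 7.25, 21.8 and 16.5 CPM. Its ratios were 1.53 (1.21 to 1.86) and 1.18 (0.83 to 1.52). EXO1, the exonuclease of long-range resection (chromosome 1, 241847967 to 241895148), was at 4.62, 5.52, 13.5 and 12.5 CPM, with ratios of 1.54 (1.12 to 1.95) and 1.17 (0.77 to 1.56). In each of the 4 genes the untreated and palbociclib libraries lay below both libraries with indisulam.

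In RAD54L, a DNA translocase of recombination (chromosome 1, 46246461 to 46278480), both libraries with indisulam were again the higher ones, with 7.73 CPM untreated, 5.44 with palbociclib, 14.4 with indisulam and 12.1 with the combination. Only its ratio of the combination to palbociclib, 1.15 (0.75 to 1.54), passed the 2-fold call. Exon bases of LRRC41 on the opposite strand cover 26.2% of its transcript, and the strand setting of the counting is not given. RAD54B, its relative, had a mean of 0.846 CPM per kb over its whole transcript, the lowest value of the 39 genes. It had 33, 22, 37 and 55 reads, and its ratio of the combination to palbociclib was 1.11 (0.42 to 1.80). That is 1.78 times the limit put on the SD of a single ratio for genes of 1 to 5 CPM. FSBP exons on the same strand share 65.5% of its transcript, and reads from that part cannot be assigned to RAD54B alone. Such reads may have been left out as ambiguous, so its value per kilobase may be too low and its rank is uncertain.

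With palbociclib alone against untreated cells, 3 genes were called higher (XRCC3, FANCM and XRCC2) and 0 lower, with 5.96% and 4.95% of all tested genes called. The median was 0.15, against -0.02 over all tested genes. The intervals of 15 of the 39 genes lay above 0, the 3 called genes among them, and those of 10 lay below 0. No share over all tested genes was at hand for these counts, so they cannot be read as particular to the repair genes. Below the 2-fold call, ATR (0.92), FANCB (0.90) and FANCA (0.70) were the furthest upward. FANCG (-0.78), FANCE (-0.77), FANCD2 (-0.64) and CHEK1 (-0.59) were the furthest downward beyond counting error. In the second estimate, the combination against indisulam alone, 0 of the 39 genes were called in either direction, where 5.09% of all tested genes were called higher and 3.19% lower. Among genes averaging at least 5 CPM, as 38 of the repair genes did, these shares were 2.58% and 2.21%. With 0 calls in the second estimate, no repair gene was called in both for palbociclib, where 2.06% of all tested genes were called higher and 1.26% lower.

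**Figure D2:**
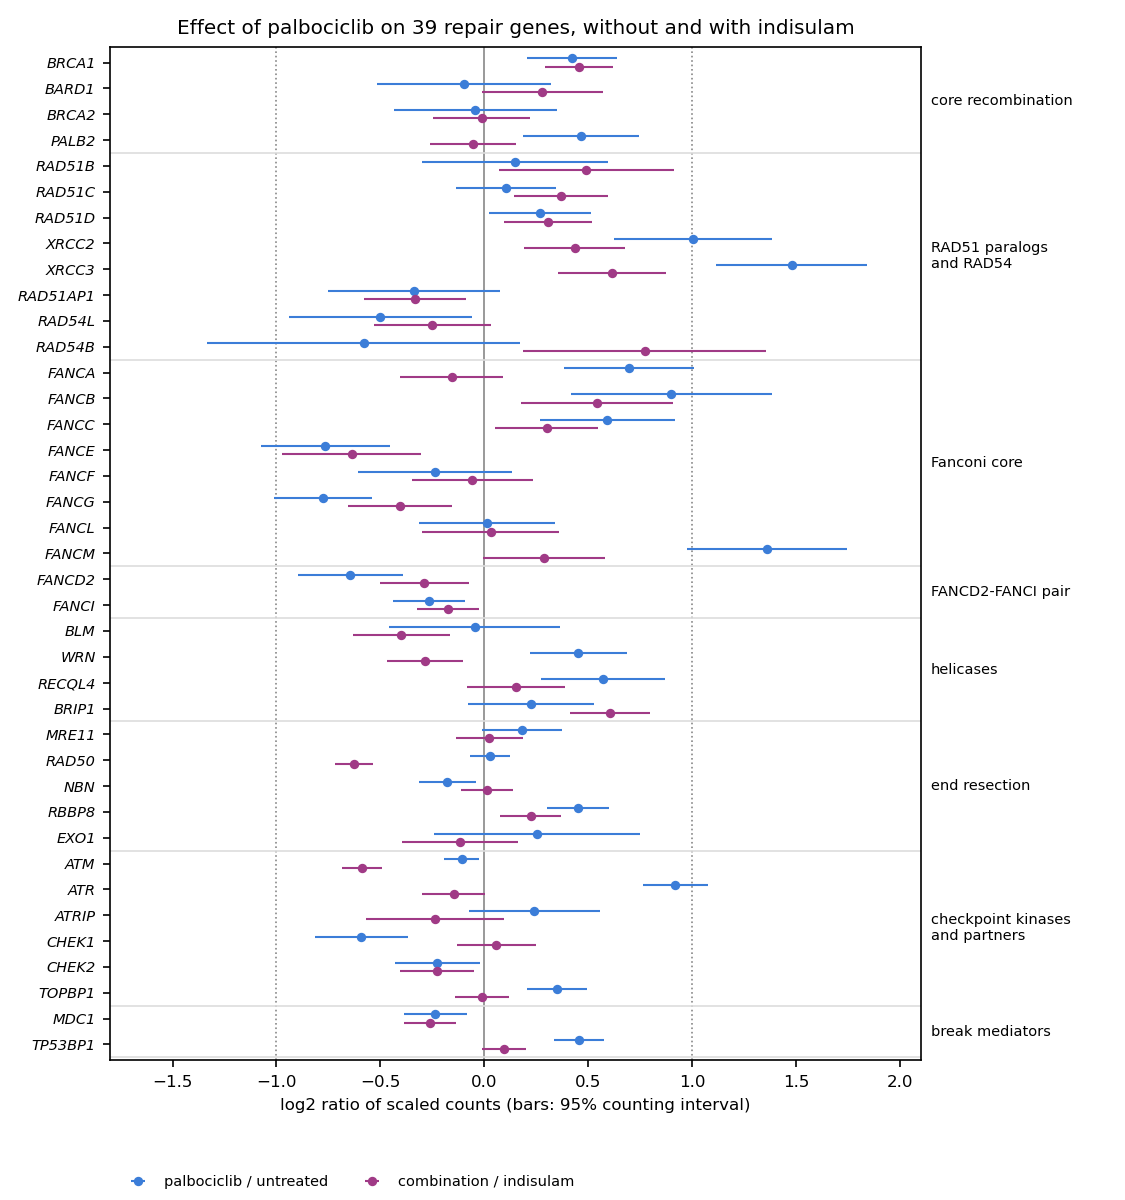
Log2 ratios of the 39 repair genes for the 2 estimates of the palbociclib difference, palbociclib against untreated and combination against indisulam, with bars for the 95% counting intervals and genes ordered by role. XRCC2, XRCC3 and FANCM reach 1 in the first estimate and 0 genes reach 1 or −1 in the second.

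XRCC2, which acts with RAD51B, RAD51C and RAD51D in one complex (chromosome 7, 152644776 to 152676193), was lowest untreated at 6.45 CPM, and was at 13.0 with palbociclib, 15.1 with indisulam and 20.4 with the combination. Its ratios to untreated were 1.00 (0.62 to 1.38), 1.22 (0.86 to 1.57) and 1.65 (1.30 to 2.00), and these 3 share the untreated library. XRCC3, the partner of RAD51C (chromosome 14, 103697609 to 103715504), was at 6.37 CPM untreated and 17.9, 12.3 and 18.8 with palbociclib, indisulam and the combination. Its called ratios were 1.48 (1.11 to 1.84) for palbociclib and 1.55 (1.19 to 1.91) for the combination, and KLC1 exons on the other strand cover 34.2% of its transcript. RAD51B, RAD51C and RAD51D were not called in any comparison. RAD51B lay between 4.79 and 6.76 CPM, RAD51C between 17.7 and 22.9, and RAD51D between 19.0 and 25.8. FANCM, the translocase that anchors the Fanconi core at DNA (chromosome 14, 45135930 to 45200890), was at 5.81 CPM untreated, 15.05 with palbociclib, 10.7 with indisulam and 13.1 with the combination. It was 2.57-fold higher with palbociclib, a log2 ratio of 1.36 (0.98 to 1.75). As in XRCC2, the untreated library was the lowest for XRCC3 and FANCM, and their called ratios all share it.

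The combination against untreated cells held the most calls, 8 genes higher and 3 lower, over a background of 13.0% higher and 10.6% lower. The repair genes had a median of 0.32 and all tested genes one of 0.05. The genes called higher were XRCC2, XRCC3, BRIP1, EXO1, BRCA2, FANCM, FANCB and BLM. BRIP1, the helicase bound by BRCA1 (chromosome 17, 61679139 to 61863559), was at 12.7 CPM untreated, 14.8 with palbociclib, 22.4 with indisulam and 34.1 with the combination. Its ratio of the combination to untreated was 1.42 (1.17 to 1.68) and that to palbociclib was 1.20 (0.96 to 1.44). FANCB, a core subunit on the X chromosome (14690388 to 14873255), had 51, 97, 105 and 132 reads. It was lowest untreated, and 2.24-fold higher with the combination.

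The 3 genes called lower were ATM, FANCE and FANCG. ATM, the kinase that answers double-strand breaks (chromosome 11, 108223044 to 108369102), was at 189 CPM untreated, 175 with palbociclib, 142 with indisulam and 94.3 with the combination. Its combination to untreated ratio of -1.0 (-1.10 to -0.91) sat at the edge of the 2-fold call. The combination was below palbociclib by a log2 ratio of -0.89 (-0.99 to -0.79), and indisulam below untreated by -0.41 (-0.49 to -0.33). FANCE, which links the core to FANCD2 (chromosome 6, 35452338 to 35467104), was at 17.6, 10.3, 11.8 and 7.59 CPM, with a combination ratio of -1.21 (-1.53 to -0.88). FANCG, a scaffold of the core (chromosome 9, 35073835 to 35080004), was at 30.8, 17.96, 19.2 and 14.5 CPM, with a ratio of -1.09 (-1.33 to -0.84). Both core genes were highest untreated, intermediate with either drug and lowest with both.

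**Figure D3:**
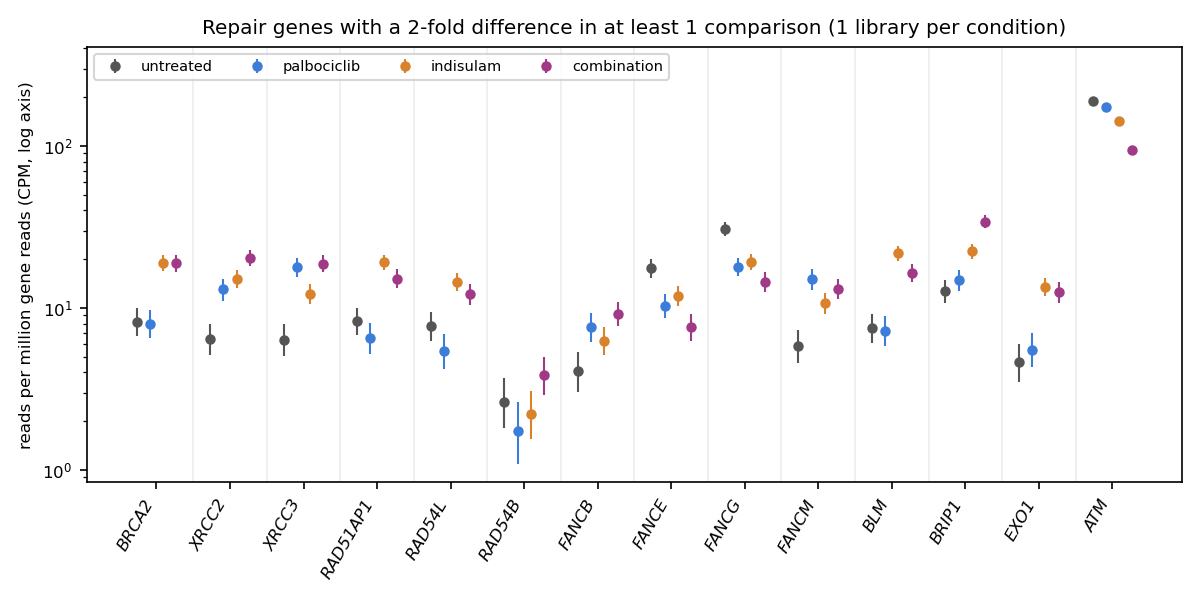
CPM in the 4 libraries, on a log axis, for the 14 repair genes called in at least 1 of the 5 library comparisons, with bars for the 95% counting intervals. BRCA2, BLM, EXO1 and RAD51AP1 are higher in the 2 libraries with indisulam, and FANCE, FANCG and ATM are lowest in the combination.

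Of the core recombination genes, BRCA1 was at 23.3 CPM untreated, 31.3 with palbociclib, 33.0 with indisulam and 45.2 with the combination. Its ratio of the combination to untreated of 0.95 (0.75 to 1.15) was short of the call, and its departure from additivity, defined below, was 0.03 (-0.24 to 0.30). PALB2, the link to BRCA2, lay between 14.02 and 24.4 CPM, and BARD1, the BRCA1 partner, between 6.85 and 13.2. Among the other core Fanconi genes, FANCA lay between 10.3 and 17.8 CPM (27.4% of its transcript lies under ZNF276 exons of the opposite strand), FANCC between 9.96 and 18.7, FANCF between 8.43 and 12.3 and the ligase FANCL between 9.27 and 11.7. FANCL shares 27.3% of its transcript with opposite-strand VRK2 exons. FANCD2 was at 25.2 CPM untreated, 16.1 with palbociclib, 25.1 with indisulam and 20.5 with the combination, lowest with palbociclib. Its partner FANCI was flatter, between 38.7 and 50.02 CPM. The helicase genes WRN and RECQL4 were at 19.9 to 34.5 and 11.8 to 19.4 CPM.

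Resection genes other than EXO1 were not called in any comparison. RBBP8, which encodes CtIP, ranged from 43.98 to 67.1 CPM, MRE11 from 32.3 to 39.6 and NBN from 61.6 to 69.7. RAD50 was at 134, 137, 157 and 101 CPM, lowest with the combination. In the checkpoint group, ATR, the kinase of stalled forks (chromosome 3, 142449007 to 142578733), was at 40.1 CPM untreated, 75.8 with palbociclib, 47.2 with indisulam and 42.6 with the combination. The palbociclib library thus stood above the others, at a ratio to untreated of 0.92 (0.76 to 1.07), just below the 2-fold call. CHEK1, the ATR effector, was lowest with palbociclib at 20.6 CPM against 31.1 untreated. CHEK2 ranged from 28.1 to 35.8 CPM, TOPBP1 from 53.1 to 67.7 and ATRIP from 8.57 to 13.9. ATRIP shares 31.6% of its transcript with TREX1 on the same strand. The break mediators MDC1 and TP53BP1 ranged from 50.7 to 71.2 and from 75.4 to 103 CPM, with opposite-strand exons of MDC1-AS1 under 10.1% and of TUBGCP4 under 36.0% of their transcripts. In all, 25 of the 39 genes spanned less than 2-fold over the 4 libraries, where 63.3% of all tested genes did.

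Per kilobase of transcript, the highest means over the 4 libraries were those of CHEK2 (17.3 CPM per kb), RBBP8 (16.2) and RAD50 (16.0). The lowest were FANCM (1.57), BRCA2 (1.13) and RAD54B, whose rank is uncertain because of its overlap with FSBP. The library with the highest level was indisulam or the combination for 13 genes each, palbociclib for 7 and untreated for 6, and the shares over all tested genes were 23.8%, 30.2%, 19.8% and 26.2%. The lowest level fell in the untreated library for 17 genes and in the palbociclib library for 13, where 29.5% and 26.6% of all tested genes had their lowest.

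To compare giving both drugs with giving each, the log2 ratio of the combination to untreated was set against the sum of those of the single drugs, and the difference is the departure from additivity. By the 2-fold call 1 gene, RAD54B, departed upward by 1.35 (0.40 to 2.31) and 2 departed downward, FANCM by -1.07 (-1.56 to -0.59) and ATR by -1.07 (-1.28 to -0.85). Of all tested genes, 4.11% departed upward and 3.93% downward, and the median departure was -0.03 for the repair genes and 0.01 for all tested genes. In FANCM the combination lay between the 2 single drugs, and untreated, which enters the departure, was the lowest library. In ATR the combination lay close to untreated and to indisulam and below palbociclib. RAD54B rests on few reads, as given above.

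**Figure D4:**
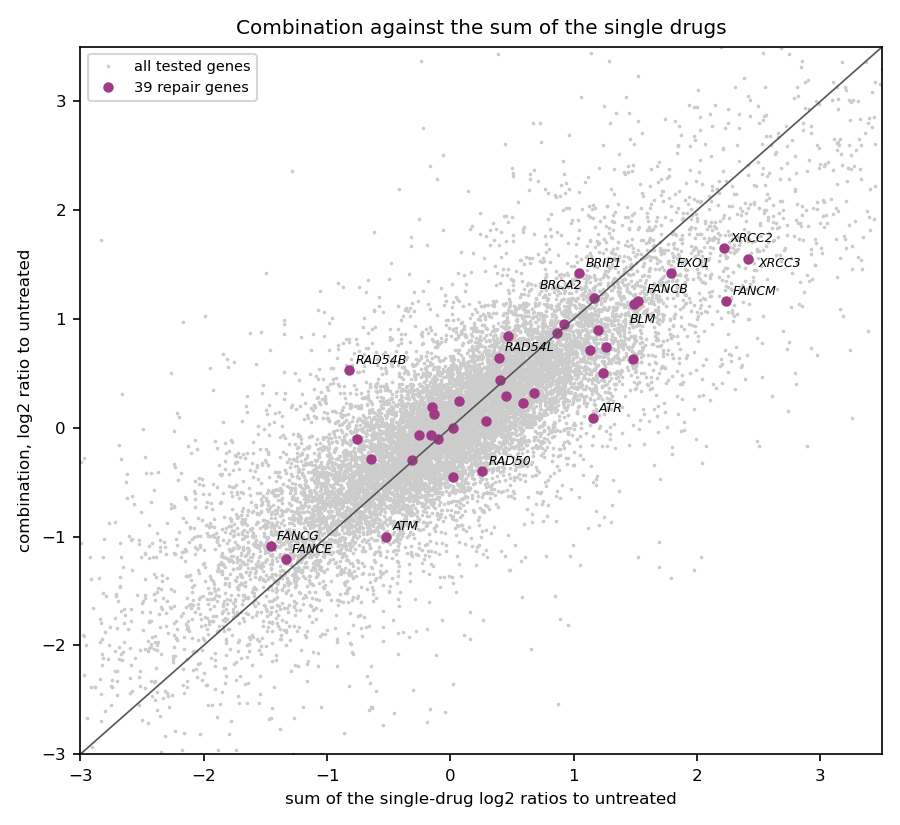
Log2 ratio of the combination to untreated plotted against the sum of the log2 ratios of palbociclib and of indisulam to untreated, for the repair genes and for all tested genes in grey, of which 497 fall outside the axes. Both axes share the untreated library. RAD54B lies above the diagonal and FANCM and ATR below it.

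The promoters of the genes were searched for the letters of an E2F site, since E2F factors lie downstream of CDK4 and CDK6. RefSeq promoters (250 bases before to 50 after the start, GRCh38.p14) were given for 34 of the 39 genes, and the letters TTTCCCGC, TTTCGCGC, TTTGCCGC or TTTGGCGC, on either strand, were present in 6 of them (17.6%), against 3.99% of all genes with a promoter and 6.56% of the tested ones. The 6 windows below show a match in each of these genes, each 30 bases long and written 5′ to 3′ on the gene's strand, with the matching letters in capitals. XRCC2 and EXO1 are among the genes called above, and FANCA, FANCC, FANCD2 and TOPBP1 were not called. EXO1 and FANCC each have 2 promoters, of which only 1 holds a match. That of FANCC has 2 matches, of which 1 is shown. A match describes letters only.

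XRCC2, chr7:152676102-152676131, minus strand: tggcgttggtgGCGGGAAAgttgagtctct

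EXO1, chr1:241848197-241848226, plus strand: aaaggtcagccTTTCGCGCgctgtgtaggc

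FANCA, chr16:89816801-89816830, minus strand: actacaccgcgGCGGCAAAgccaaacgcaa

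FANCC, chr9:95317863-95317892, minus strand: ccggggcttccGCGCGAAAccgggaacact

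FANCD2, chr3:10026424-10026453, plus strand: cgtcgggcctgGCGGGAAAgtcgaaaacta

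TOPBP1, chr3:133661930-133661959, minus strand: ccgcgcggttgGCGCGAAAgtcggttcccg

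The letters TTTGAA or TTCGAA of a cell-cycle homology region, on either strand, were in 4 of the 34 (11.8%), against 19.5% of all genes with a promoter and 15.9% of the tested ones. In XRCC2 the E2F letters begin at transcribed base 22, and in EXO1 at transcribed base 5 from the start that holds the match.

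The wider pathway was examined with 63 further recombination and Fanconi genes, of which 61 were tested. With palbociclib alone, 2 were called higher (POLN at 1.08 and GEN1 at 1.00) and 2 lower (EME1 at -1.19 and RPA3 at -1.12), with a median of -0.09. Of all tested genes, 5.96% were called higher and 4.95% lower there. With indisulam alone, 3 were called higher (GEN1 and POLQ among them) and 2 lower (POLN and EME1), with a median of 0.12. The shares of all tested genes were 8.44% higher and 6.71% lower. POLQ, the polymerase of theta-mediated end joining, had 101, 133, 338 and 337 reads, and its ratio was 1.32 for indisulam against untreated and 1.16 for the combination against palbociclib. In the combination against palbociclib, 3 were called higher and 2 lower, and in the combination against indisulam 1 was called in each direction. The shares of all tested genes were 9.62% and 7.40% against palbociclib, and 5.09% and 3.19% against indisulam. In the combination against untreated, 8 of the 61 were called higher, close to the 13.0% of all tested genes. They were led by GEN1 at 1.71, POLQ at 1.54 and CLSPN at 1.34. Called lower were 4, below the 10.6% of all tested genes, led by ABRAXAS1 at -1.19, EME1 at -1.15 and REV3L at -1.14. The median of that list was 0.00. EME1, a partner of the nuclease MUS81, had 259 reads untreated and 114, 141 and 133 with palbociclib, indisulam and the combination.

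Non-homologous end joining is the route that needs no template. Of its 15 genes listed and matched, 14 were tested, and 0 were called with either drug alone, against the shares of all tested genes given above. In the combination against untreated POLL was lower at -1.36, and against palbociclib APLF was lower at -1.31. In the 5 library comparisons the median ratios of this list were between -0.17 and 0.04.

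Cell-cycle genes also differed between the libraries, and their values are given beside those of the repair genes. After removing BLM, EXO1 and RAD51AP1, which both lists hold, the remaining 40 S-phase genes had median log2 ratios to untreated of 0.06 for palbociclib, 0.51 with indisulam, 0.45 with the combination, and 0.48 for the combination against palbociclib. With indisulam 2 were called higher and 0 lower, where 8.44% and 6.71% of all tested genes were. The G2 and mitosis list of 54 genes, which shares none with the repair genes, had a median of -0.98 with palbociclib (26 lower, 0 higher) and 0.45 with indisulam (0 lower, 1 higher), and 0.98 for the combination against palbociclib (27 higher, 0 lower). Of all tested genes, 4.95% were called lower and 5.96% higher with palbociclib. For the combination against palbociclib, 9.62% were called higher and 7.40% lower. In both indisulam estimates the S-phase and G2 medians, MKI67 and PCNA were higher with the drug, whereas TOP2A was lower in the first (-0.53, with an interval of -0.59 to -0.47) and higher in the second (0.72, with an interval of 0.63 to 0.81). The part of the cell-cycle makeup of the cultures in the differences of BRCA2, BLM, EXO1 and RAD51AP1 was not tested. Whether indisulam altered the splicing of repair transcripts was not tested either, since counts per gene do not show it.

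**Figure D5:**
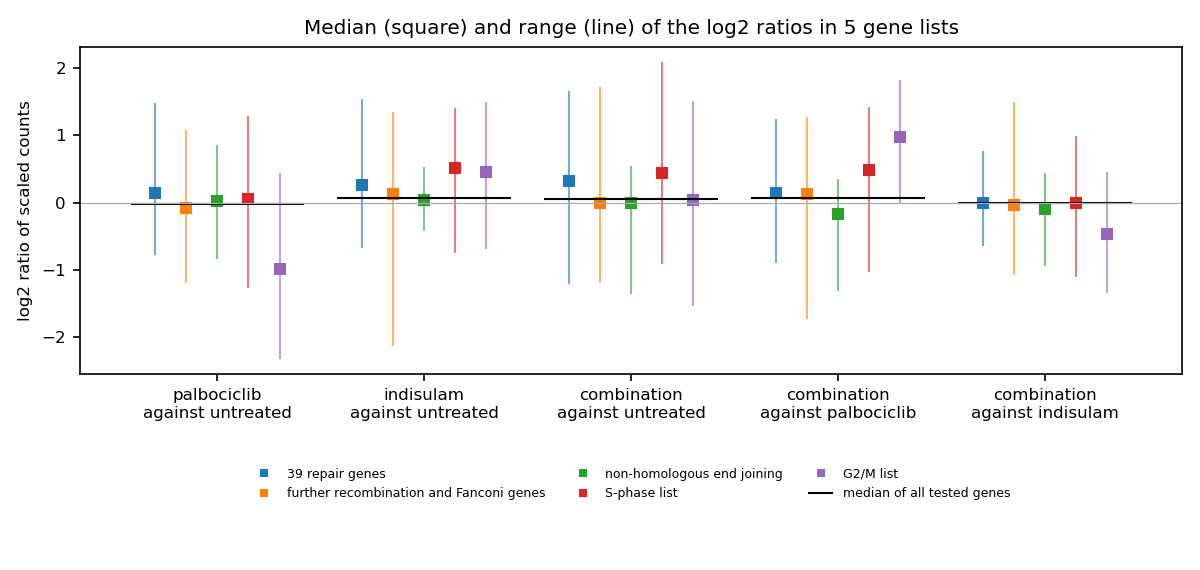
Log2 ratios for the repair genes and 4 other lists (further recombination and Fanconi genes, non-homologous end joining, S phase without shared genes, G2 and mitosis) in the 5 library comparisons, with squares for list medians, coloured lines for the range over genes and black lines for the median of all tested genes. The G2 and mitosis median is -0.98 with palbociclib and the repair genes' median 0.15, beside -0.02 for all tested genes.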

How the data were processed

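Total RNA of 4 SUM159 cultures was sequenced as poly(A) libraries. The authors deposited raw read counts per gene (Ensembl identifiers, GRCh38). The submitters' processing notes name TopHat2 2.1 and HTSeq. The strand setting and annotation release are not given in the sources used here. Rows that name no gene (ambiguous reads, 2.41 to 2.63%, among them) were left out of totals.

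From these counts, CPM and log2 ratios were computed in Python 3.11.15, with counts scaled by library totals, a pseudocount of 1 and counting intervals from Poisson errors. Genes of mean CPM of at least 1 were tested (14269). Calls needed 2-fold and a 95% interval that excluded a ratio of 1. The method was tested on simulated counts with Poisson error only, which the intervals assume, so spread between libraries was not covered. With 1 library per group, no test across samples could be made. The symbols, lengths, positions and exon overlaps came from GENCODE 44, and the S-phase and G2/M lists from Seurat 5.3.0. TMM and upper-quartile factors (edgeR 4.0.16) and median-ratio factors (DESeq2 1.42.0) were alternatives, used for scaling only. All 39 listed genes were named, each called one with its values, and of other lists up to 3 called genes in each direction. The members and lists were chosen with earlier results of these data known. A result of the wider pathway is not reported here.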

Additional observations from a re-analysis of the deposited data

Results flagged for a closer look

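RAD50, ATR, TP53BP1 and WRN differed beyond counting error in opposite directions when the same drug was given alone or with the other, which counting error alone cannot show to hold across replicates. RAD50 was higher with indisulam alone (0.23, log2) and lower when indisulam was added to palbociclib (-0.43). ATR was at 0.23 and -0.83 for the same comparisons, and TP53BP1 at 0.23 and -0.13, with 36.0% of the TP53BP1 transcript under TUBGCP4 exons of the opposite strand. WRN was higher with palbociclib alone (0.45) and lower when palbociclib was added to indisulam (-0.28). Departures from additivity past the 2-fold call were those of RAD54B (1.35), FANCM (-1.07) and ATR (-1.07). Both TP53BP1 ratios, and those of RAD50 and ATR with indisulam alone, were below 0.26 to 0.28. This was the limit put on the SD of a single ratio for a typical gene at their levels. These differences were not tested across replicates.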

How the results depend on the processing

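Of 29 called ratios and departures of the repair genes, 27 held in every alternative that tested them. XRCC2 with palbociclib, at 0.97, and ATM with the combination, at -1.0, came just short of the call with a pseudocount of 5, and 0 reversed. Other scalings (TMM, upper quartile, median ratio) gave the same counts of called genes. With TMM the repair genes' medians were 0.18 (indisulam), 0.23 (combination) and 0.04 (combination against palbociclib). Those of all tested genes moved down as well, to -0.01, -0.04 and -0.03 in the same order. With a 1.5-fold threshold 11 genes were called for palbociclib (7 higher, 4 lower, all genes 12.7% and 12.3%). For indisulam 15 were called (14 and 1, all genes 17.3% and 14.3%), and for the combination 19 (16 and 3, all genes 23.2% and 19.5%). The combination against palbociclib had 12 (9 and 3, all genes 18.5% and 14.5%) and against indisulam 6 (3 and 3, all genes 12.1% and 10.3%). The departure had 8 (2 and 6, all genes 9.36% and 9.78%). Both estimates called 7 genes for indisulam and 2 for palbociclib. No share over all tested genes was at hand for these 2 counts, so they cannot be read as an excess. Without the 8 genes with over 10% exon overlap, a choice made after seeing the data, 31 genes remained. Of these, 2 were called higher with palbociclib (XRCC3 being left out), 5 with indisulam and 5 for the combination against palbociclib. With the combination 10 were called, 7 higher and 3 lower. The shares over all tested genes stayed as given above for the 2-fold call. At a 5 CPM minimum RAD54B was not tested, and the shares over all tested genes were smaller. They were 3.86% higher and 3.47% lower for palbociclib, 5.88% and 4.77% for indisulam, and 9.73% and 8.76% for the combination. Against palbociclib the combination had 6.69% and 5.58%, and against indisulam 2.58% and 2.21%. The exact interval was not computed for departures. No paired analysis was possible because each group had 1 library. Depth limits small differences in genes of low count such as RAD54B and FANCB.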
